A study of Drosophila melanogaster with 9 samples.

Results

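Septate junctions seal the space between neighbouring epithelial cells of insects. In the adult *Drosophila* midgut they are of the smooth type, whose membrane proteins Snakeskin (*Ssk*), Mesh (*mesh*) and Tetraspanin 2A (*Tsp2A*) depend on one another to reach the junction and are needed for the barrier function of the gut. Coracle (*cora*), a FERM-domain protein, and the scaffold proteins Discs large (*dlg1*) and Scribble (*scrib*) are best known from the pleated septate junctions and the lateral membrane of other epithelia. These 6 genes were taken by symbol from a table of 17481 genes, and all 6 were found and passed the filter on low values. The set was chosen with earlier results of these data known. The first 3 are called smooth junction genes here and the other 3 lateral genes.

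Their RNA was measured by RNA sequencing of GFP+ cells sorted from adult midguts, in 3 groups of 3 libraries each: *gro-RNAi*, *Notch-RNAi* and control. All groups are taken to have carried *Dl-Gal4*, *UAS-GFP* and a temperature-sensitive *Gal80*, so that the driver of the intestinal stem cell (ISC) ligand gene *Delta* set both the sorted cells and the cells in which RNAi ran. The *gro-RNAi* cells expressed RNAi against *groucho*, a corepressor that acts with the E(spl) proteins, the *Notch-RNAi* cells expressed RNAi against the receptor gene *Notch*, and the control cells, labelled wild type, expressed GFP alone. The comparisons ask how each depletion altered the transcripts of Dl > GFP+ cells.

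For the *gro-RNAi* and control groups, flies were raised at 18°C and their adults, aged 3 to 5 days, spent 4 days at 29°C. The stock list holds a *UAS-Notch-RNAi* line, but the sequencing methods do not describe that group, and the labels give an age of 5 to 7 days for all groups. About 200 midguts were pooled for each replicate and about 30000 cells sorted for each sample, after which the RNA was amplified. The driver and the sort both follow *Delta* expression, which limits each group to cells that switched *Dl-Gal4* on. In bulk samples such as these, fewer cells of a type and less RNA per cell cannot be told apart. The methods give 3 replicates per genotype, and RT-PCR on amplified RNA of *gro-RNAi* and control cells is described as using independent biological replicates. Whether replicates came from separate crosses is not stated for the libraries, and the p-values measure the spread between them.

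Values are FPKM, fragment numbers divided by transcript length and by the library's mapped total. Levels of different genes are set side by side on this scale as a description. The part of RNA amplification and of transcript length in differences between genes was not tested. The estimated depth was 7720000 to 14000000 reads in *gro-RNAi*, 16200000 to 18900000 in *Notch-RNAi* and 11200000 to 12600000 in control libraries. *N* was 9.78 to 16.1 FPKM in *Notch-RNAi* and 28.5 to 40.9 FPKM in control libraries, and fell (log2 fold change -1.42, limma adjusted p = 0.00242). *gro* was 3.69 to 13.8 FPKM in *gro-RNAi* and 15.3 to 27.8 FPKM in control libraries, without passing the threshold (log2 fold change -1.36, limma adjusted p = 0.094). The median of all 11493 tested genes lay above 0 in both comparisons with control, by 0.27 on the log2 scale for *gro-RNAi* and by 0.46 for *Notch-RNAi*, and at -0.18 for *gro-RNAi* against *Notch-RNAi*. A single RNA, lncRNA:CR40469, took 5.9 to 14.0% of the FPKM sum in *gro-RNAi*, 2.2 to 3.9% in *Notch-RNAi* and 14.4 to 16.4% in control libraries, and its part in these median shifts was not tested. The members are therefore also given relative to these medians, and after each library was centred on its own median, named centring below. A gene is called where its adjusted p is under 0.05 over all tested genes.

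The 6 genes spanned a wide range of FPKM in these cells. In control libraries *Ssk* averaged 227 ± 15.4 FPKM (SD, n = 3), above 95.8% of tested genes, and *Tsp2A* averaged 103 ± 23.4 FPKM, above 91.7%. Next came *cora* at 65.3 ± 17.5 FPKM, *mesh* at 21.6 ± 1.80 FPKM, *dlg1* at 17.2 ± 2.83 FPKM and *scrib* at 10.7 ± 3.99 FPKM. Over control libraries *Tsp2A* and *cora* nearly met, since the highest *cora* value, 77.6 FPKM, lay just below the lowest of *Tsp2A*, 77.8 FPKM. Those of *mesh* and *dlg1* overlapped narrowly, with the lowest *mesh* value at 19.8 FPKM and the highest of *dlg1* at 20.3 FPKM, and *dlg1* and *scrib* overlapped as well. In *gro-RNAi* and *Notch-RNAi* libraries *Ssk* and *Tsp2A* again had the highest means of the 6, and *scrib* and *dlg1* the lowest.

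The genes lie on 4 chromosome arms, in release 6 coordinates. *Ssk* (FBgn0036945) is on 3L at 20188522 to 20189779, *mesh* (FBgn0051004) on 3R at 31178389 to 31195762, and *Tsp2A* (FBgn0024361) on X at 1346553 to 1348143. *cora* (FBgn0010434) is on 2R at 19229063 to 19243751, *dlg1* (FBgn0001624) on X at 11369665 to 11409776, and *scrib* (FBgn0263289) on 3R at 26536350 to 26604051. The smooth junction genes *Ssk* and *Tsp2A* are short, with 2 annotated transcripts each and a longest transcript of 898 and 1002 nt, whereas *dlg1* and *scrib* have 21 and 18 transcripts with a longest of 7249 and 9438 nt. Each value sums whatever isoforms the counting assigned, and isoform differences were not analysed here. An antisense gene overlaps *Ssk* (CG42674, 4.23 to 9.40 FPKM), *mesh* (*bnk*, 0 to 0.983 FPKM), *Tsp2A* (*MTPAP*, 5.93 to 19.1 FPKM) and *scrib* (lncRNA:CR46084, 0 to 0.498 FPKM), in each case with 0 nt of shared exon.

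In *Notch-RNAi* cells the 3 smooth junction genes stood above control in every library, as did 39% of all tested genes. Of the 6 members only *Ssk* passed the threshold, beside 24.4% of all tested genes called higher and 4.29% lower. *Ssk*, a small membrane protein needed to place the other smooth junction proteins, was 728, 650 and 558 FPKM in *Notch-RNAi* libraries, against 244, 216 and 220 FPKM in control libraries. Every *Notch-RNAi* library lay far above every control library. The mean was 2.85 times the control mean, and *Ssk* rose by 1.50 ± 0.36 on the log2 scale (SE, limma adjusted p = 0.016), which is 1.04 above the median of all tested genes. The call was lost narrowly with centring, where the log2 fold change was 1.00 (limma adjusted p = 0.0504). It was also lost without *Notch-RNAi* replicate 1 (1.41, limma adjusted p = 0.0618) or replicate 2 (1.49, limma adjusted p = 0.0533).

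*Tsp2A*, the tetraspanin of the complex, was 316, 275 and 153 FPKM in *Notch-RNAi* libraries, against 77.8, 105 and 125 FPKM in control libraries. The groups did not overlap, but *Notch-RNAi* replicate 3 came close to the highest control library. The log2 fold change was 1.23 (95% interval 0.29 to 2.17, limma adjusted p = 0.0533), just short of the threshold. *mesh*, which encodes a membrane protein with a large extracellular region, was 51.1, 57.0 and 29.7 FPKM in *Notch-RNAi* libraries, against 23.4, 21.6 and 19.8 FPKM in control libraries. These groups also did not overlap, and replicate 3 was again the lowest after *Notch* depletion. The log2 fold change was 1.03 (95% interval 0.16 to 1.90, limma adjusted p = 0.0741). Without *Notch-RNAi* replicate 3, *mesh* and *Tsp2A* both passed (log2 fold changes 1.32 and 1.55, limma adjusted p = 0.0468 and 0.035).

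**Figure D1:**
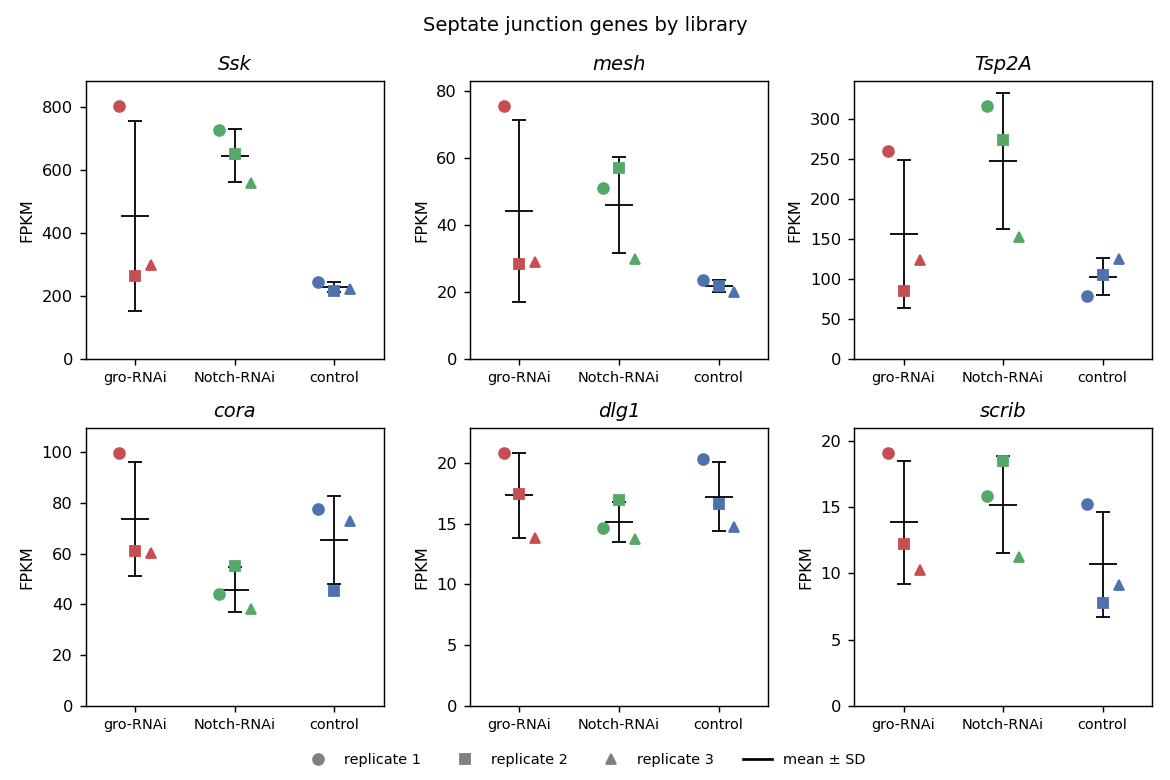
FPKM of the 6 septate junction genes in each of the 9 libraries, 1 panel per gene, with *gro-RNAi*, *Notch-RNAi* and control from left to right. Symbols are the replicates and black bars the mean ± SD of 3 libraries. *Ssk* lies at 558 to 728 FPKM in *Notch-RNAi* and at 216 to 244 FPKM in control libraries, and *gro-RNAi* replicate 1 is the highest *gro-RNAi* library in every panel.

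None of the 3 lateral genes passed the threshold without centring. *cora*, which links junction proteins to the cell cortex, was 44.2, 55.2 and 38.1 FPKM in *Notch-RNAi* libraries, against 77.6, 45.4 and 73.0 FPKM in control libraries. Control replicate 2 fell among the *Notch-RNAi* libraries, while both others lay above all of them. The log2 fold change was -0.49 (95% interval -1.11 to 0.13, limma adjusted p = 0.208). *dlg1*, a scaffold of the lateral membrane, was 14.6, 17.0 and 13.7 FPKM in *Notch-RNAi* libraries and 20.3, 16.7 and 14.7 FPKM in control libraries, which overlapped (log2 fold change -0.18, 95% interval -0.65 to 0.28, limma adjusted p = 0.538). *scrib*, its partner in lateral polarity, was 15.9, 18.5 and 11.2 FPKM in *Notch-RNAi* libraries and 15.2, 7.74 and 9.10 FPKM in control libraries, with overlap (log2 fold change 0.54, 95% interval -0.20 to 1.28, limma adjusted p = 0.246). With centring, *cora* and *dlg1* were called lower in *Notch-RNAi* cells, by -0.99 (limma adjusted p = 0.0109) and -0.68 (limma adjusted p = 0.0209), whereas *scrib* stood at 0.03 (limma adjusted p = 0.941).

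Of the 6 genes, 1 was thus called higher in *Notch-RNAi* cells and 0 lower by limma. The 3 smooth junction genes had an unadjusted p under 0.05. Every called gene has such a p, and 24.4% of all tested genes were called higher and 4.29% lower. The full share over all tested genes was not computed, here or for the other unadjusted counts. The median log2 fold change of the 6 was 0.78, beside 0.46 over all tested genes. Calls over all genes were 85.1% higher without centring and 42.5% higher with it, and the members' calls turned the same way, to 0 higher and 2 lower. Centring called 958 of 11493 tested genes higher and 1294 lower.

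**Figure D2:**
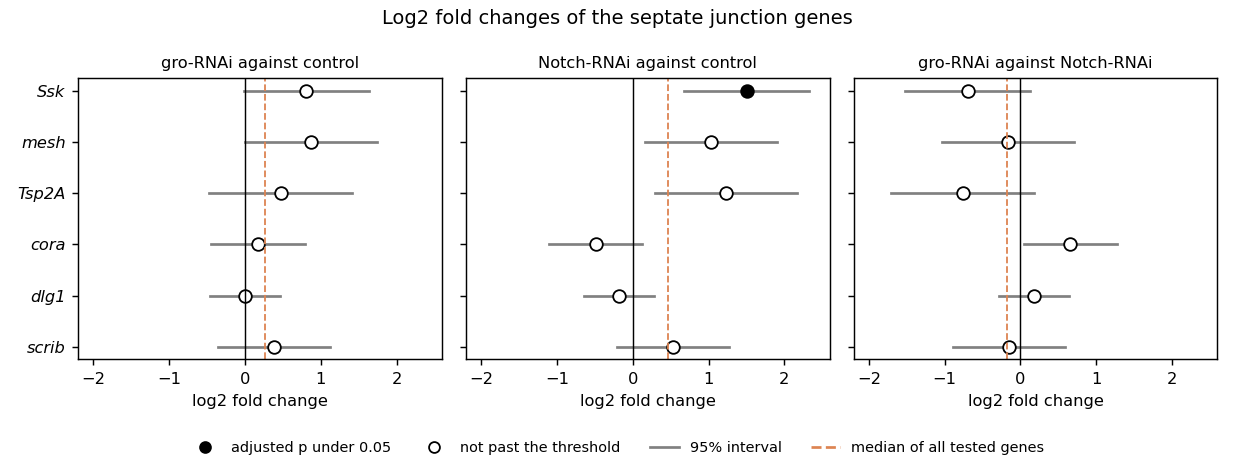
Log2 fold changes of the 6 genes (points) with 95% intervals (grey lines) in the 3 comparisons, on the log2(FPKM + 0.1) scale without centring. Filled points passed an adjusted p of 0.05, the black line marks 0 and the dashed line the median of all tested genes. *Ssk* in *Notch-RNAi* against control, at 1.50, is the single filled point.

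In *gro-RNAi* cells 0 of the 6 genes were called higher and 0 lower by limma, where 6.26% of all tested genes were called higher and 1.23% lower, and 0 of 6 reached an unadjusted p under 0.05. The smooth junction genes stood far above control in 1 library, replicate 1. That library also had the lowest *gro* level of its group, 3.69 FPKM against 13.8 and 9.53 FPKM in replicates 2 and 3. Its *Delta* level was the highest of the group, 69.7 FPKM against 30.8 and 25.6 FPKM. The part of either in the members' levels was not tested. *Ssk* was 802, 261 and 298 FPKM in *gro-RNAi* libraries, against 244, 216 and 220 FPKM in control libraries. All *gro-RNAi* libraries lay above all control libraries, but replicate 1 was far above the other 2, which were near the control range. The log2 fold change was 0.81 (95% interval -0.01 to 1.63, limma adjusted p = 0.208), and without *gro-RNAi* replicate 1 it was 0.30 (limma adjusted p = 0.321). *mesh* was 75.5, 28.2 and 28.8 FPKM in *gro-RNAi* libraries, against 23.4, 21.6 and 19.8 FPKM in control libraries. Again there was no overlap, and replicate 1 alone was far from control (log2 fold change 0.87, 95% interval -0.01 to 1.74, limma adjusted p = 0.203, and 0.40 without that library).

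*Tsp2A* was 260, 84.4 and 123 FPKM in *gro-RNAi* libraries, against 77.8, 105 and 125 FPKM in control libraries. Replicates 2 and 3 lay inside the control range, and the log2 fold change of 0.47 (95% interval -0.47 to 1.41, limma adjusted p = 0.526) was 0.02 without replicate 1. The lateral genes overlapped between the groups. *cora* was 99.6, 61.2 and 60.1 FPKM in *gro-RNAi* libraries and 77.6, 45.4 and 73.0 FPKM in control libraries (log2 fold change 0.17, 95% interval -0.45 to 0.79, limma adjusted p = 0.743), and its sign turned to -0.19 with centring. *dlg1* was 20.8, 17.4 and 13.8 FPKM in *gro-RNAi* libraries and 20.3, 16.7 and 14.7 FPKM in control libraries, with means that differed by less than 1 SD of either group (log2 fold change 95% interval -0.46 to 0.47, limma adjusted p = 1.0). *scrib* was 19.1, 12.2 and 10.3 FPKM in *gro-RNAi* libraries and 15.2, 7.74 and 9.10 FPKM in control libraries (log2 fold change 0.38, 95% interval -0.36 to 1.12, limma adjusted p = 0.511).

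For 2 of the 6, *Ssk* and *mesh*, every *gro-RNAi* library lay above every control library, as for 21.5% of all tested genes. The median of the 6 was 0.43, beside 0.27 over all tested genes. Calls over all genes were 83.6% higher without centring and 40.7% higher with it.

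In the direct comparison of *gro-RNAi* with *Notch-RNAi*, 0 of 6 genes were called higher and 0 lower by limma, where 2.6% and 4.86% of all tested genes were called, and 1 gene, *cora*, had an unadjusted p under 0.05. *cora* was higher in every *gro-RNAi* library (99.6, 61.2 and 60.1 FPKM) than in every *Notch-RNAi* library (44.2, 55.2 and 38.1 FPKM), as were 10.9% of all tested genes. Its log2 fold change was 0.66 (95% interval 0.04 to 1.28, limma adjusted p = 0.167), and it passed with centring (0.80, limma adjusted p = 0.0478). *Ssk* overlapped only through *gro-RNAi* replicate 1, which was above all *Notch-RNAi* libraries, while replicates 2 and 3 were below all of them. Its log2 fold change was -0.69 (95% interval -1.52 to 0.13, limma adjusted p = 0.263), and -1.20 without *gro-RNAi* replicate 1, where it passed (limma adjusted p = 0.00602). The differences of *Tsp2A* (-0.76, 95% interval -1.70 to 0.18, limma adjusted p = 0.28, and -1.21 without that library) and *mesh* (-0.16, 95% interval -1.04 to 0.71, limma adjusted p = 0.825) did not pass. Neither did those of *dlg1* (0.18, 95% interval -0.28 to 0.65, limma adjusted p = 0.616) and *scrib* (-0.15, 95% interval -0.89 to 0.59, limma adjusted p = 0.803). The medians were -0.16 for the 6 genes and -0.18 for all tested genes, and the share of higher calls over all genes was 34.9% without centring and 50.8% with it.

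Ratios of members within a library do not depend on how that library was scaled, and they are given as a description, since they were chosen after the values were seen. The ratio of *Ssk* to *cora* was 16.5, 11.8 and 14.7 in *Notch-RNAi* libraries, against 3.14, 4.76 and 3.01 in control libraries. In *gro-RNAi* libraries it was 8.05, 4.26 and 4.95. The *Notch-RNAi* libraries stood apart from both other groups, with a mean of 14.3 ± 2.38, against 3.64 ± 0.972 in control (SD, n = 3 each), and *gro-RNAi* overlapped with control.

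Among the smooth junction genes the proportions varied less. There were 0.094, 0.108 and 0.097 FPKM of *mesh* per FPKM of *Ssk* in *gro-RNAi* libraries, and 0.096, 0.10 and 0.090 in control libraries. *gro-RNAi* replicate 1, with the highest level of both genes, thus had nearly the same ratio as the control libraries. In *Notch-RNAi* libraries this ratio was 0.070, 0.088 and 0.053, below all control libraries. The ratio of *Tsp2A* to *Ssk* was 0.325, 0.324 and 0.414 in *gro-RNAi*, 0.435, 0.423 and 0.273 in *Notch-RNAi*, and 0.319, 0.488 and 0.566 in control libraries, with overlap between all groups. For the lateral scaffolds, *scrib* per *dlg1* was 0.918, 0.700 and 0.746 in *gro-RNAi*, 1.09, 1.09 and 0.818 in *Notch-RNAi*, and 0.750, 0.465 and 0.617 in control libraries. Every *Notch-RNAi* library lay above every control library in this ratio.

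**Figure D3:**
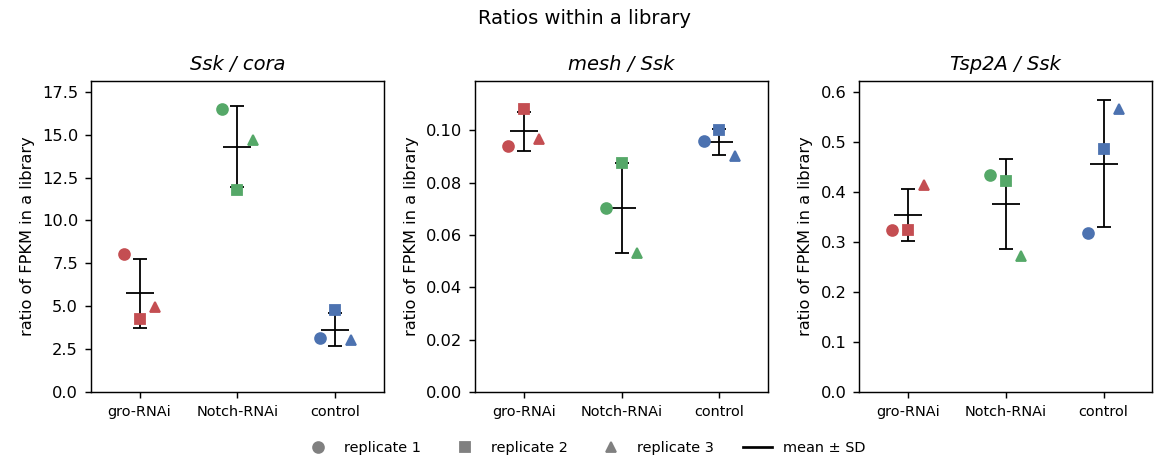
Ratios of FPKM within each library for *Ssk* to *cora*, *mesh* to *Ssk* and *Tsp2A* to *Ssk*. Symbols are the replicates of *gro-RNAi*, *Notch-RNAi* and control from left to right, and black bars the mean ± SD of 3 libraries. *Ssk* to *cora* lies at 11.8 to 16.5 in *Notch-RNAi* and at 3.01 to 4.76 in control libraries.

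Likeness of profiles was measured as the root mean square difference of log2 values over the 9 libraries after each gene's own mean was taken off, among the 8522 genes whose mean reached 1 FPKM. By this measure *mesh* was at place 52 of 8521 from *Ssk* (0.298) and *Tsp2A* at place 79 (0.321), whereas *scrib* was at place 1280 (0.512), *dlg1* at 5221 (0.770) and *cora* at 6389 (0.885). The genes nearest to *Ssk* were *qtc* (0.200), *Pop2* (0.211) and *Rbp* (0.219). Nearest to *mesh* were lncRNA:CR44506 (0.185), *Fur1* (0.208) and *hoka* (0.212), and nearest to *Tsp2A* were *Ufm1* (0.194), *CG12341* (0.229) and *Brd7-9* (0.239). All these profiles share the same 9 libraries and their depths, so they are a description. *hoka*, which encodes a further membrane protein of the smooth septate junction, came at place 8 from *Tsp2A* and 73 from *Ssk*.

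*hoka* belongs to a list of 25 other septate junction genes, all of which were tested, and is described beyond the rule for named genes because of its profile. It was 758, 286 and 389 FPKM in *gro-RNAi*, 691, 596 and 386 FPKM in *Notch-RNAi*, and 257, 333 and 270 FPKM in control libraries. As with *mesh* and *Tsp2A*, *gro-RNAi* replicate 1 was the highest *gro-RNAi* library. All *Notch-RNAi* libraries lay above all control libraries, as for 39% of all tested genes, with replicate 3 nearest to them. Since *hoka* was picked by its profile over these same libraries, its likeness to *mesh* and *Tsp2A* follows from that choice. The log2 fold change was 0.93 for *Notch-RNAi* against control (limma adjusted p = 0.0737) and 0.62 for *gro-RNAi* against control (limma adjusted p = 0.303). With centring these were 0.43 (limma adjusted p = 0.374) and 0.26 (limma adjusted p = 0.701).

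For *Notch-RNAi* against control, 2 of the 25 genes rose and 1 fell, where 24.4% of all tested genes rose and 4.29% fell, and the median of the list was 0.02, below the 0.46 of all tested genes. *Fas3*, a homophilic adhesion protein of the septate junction, was 23.5, 29.6 and 16.9 FPKM in *Notch-RNAi*, against 15.0, 9.47 and 6.38 FPKM in control libraries (log2 fold change 1.22, limma adjusted p = 0.0243). *crok*, a small Ly6-type protein that other septate junction proteins need for their assembly, was 15.9, 17.5 and 17.4 FPKM in *Notch-RNAi*, against 8.49, 8.43 and 7.03 FPKM in control libraries (log2 fold change 1.08, limma adjusted p = 0.0115). *pasi2*, a membrane protein of the pleated junction, was 8.15, 9.39 and 12.1 FPKM in *Notch-RNAi*, against 24.2, 13.9 and 17.8 FPKM in control libraries, and fell (log2 fold change -0.89, limma adjusted p = 0.0408). None of these 3 genes overlapped between *Notch-RNAi* and control, as 39% of all tested genes lay above control in every library and 8% below it. With centring, 0 of the 25 were called higher and 5 lower, *kune*, *nrv1*, *nrv2*, *cold* and *pasi2*. Over all 11493 tested genes centring gave 958 higher and 1294 lower. *Fas3* and *crok* were then at 0.72 and 0.57 (limma adjusted p = 0.156 and 0.0787). The call of *crok* held when any 1 library was left out, that of *Fas3* was lost without *Notch-RNAi* replicate 1 or 2 or control replicate 2 or 3 (limma adjusted p up to 0.0925), and that of *pasi2* without *Notch-RNAi* replicate 1 or 2 or control replicate 1 or 3 (up to 0.142).

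In *gro-RNAi* against control 0 of the 25 were called by limma, beside 6.26% of all tested genes called higher and 1.23% lower. Of the 25, 4 had an unadjusted p under 0.05, and the median of the list was 0.22, beside 0.27 for all tested genes. In *gro-RNAi* against *Notch-RNAi* 0 of 25 were called by limma, beside 2.6% of all tested genes called higher and 4.86% lower. There 3 of the 25 had an unadjusted p under 0.05. With centring 1, *Gli*, was called higher, beside 436 of 11493 tested genes.

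**Figure D4:**
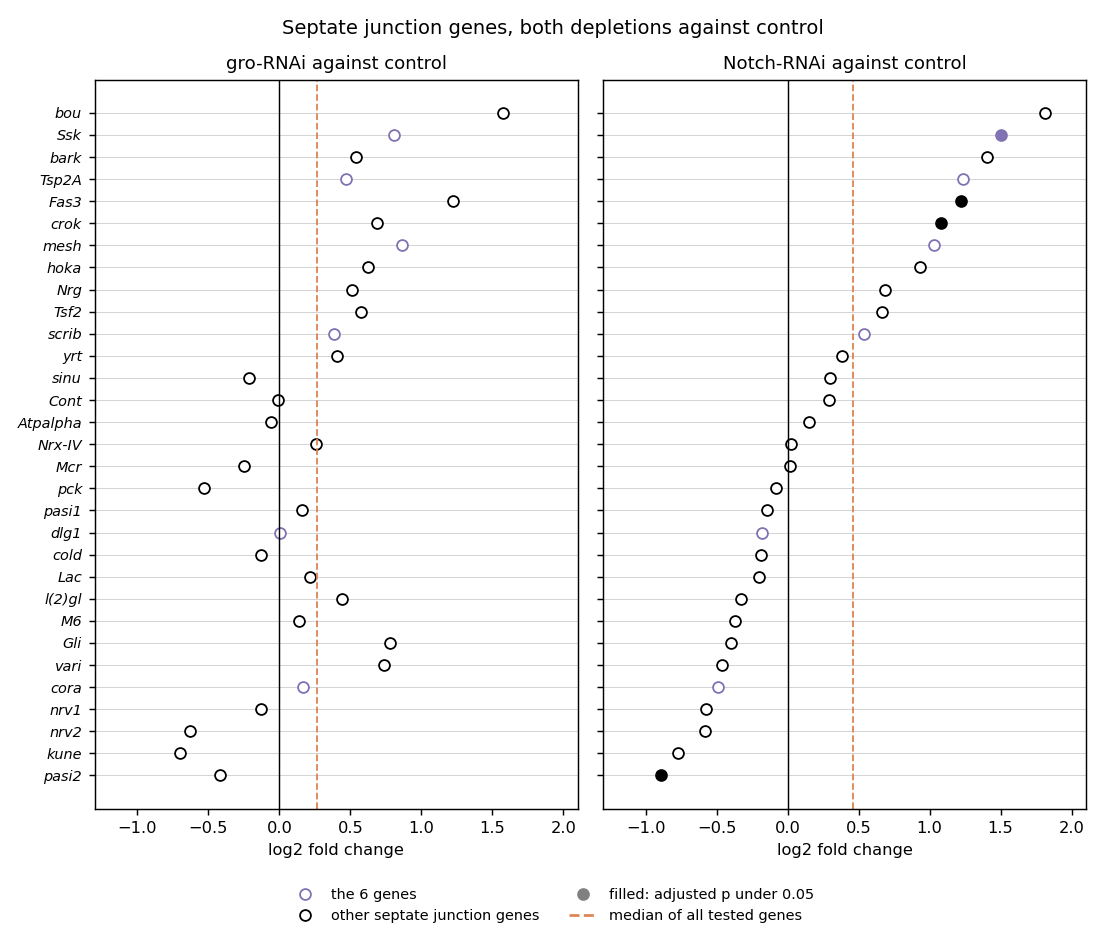
Log2 fold changes against control of the 6 genes (purple) and 25 other septate junction genes (black), in *gro-RNAi* (left) and *Notch-RNAi* (right), without centring and ordered by the *Notch-RNAi* value. Filled points passed an adjusted p of 0.05 and the dashed line is the median of all tested genes. *Ssk*, *Fas3* and *crok* are filled on the right of the *Notch-RNAi* panel and *pasi2* on its left, and no point is filled for *gro-RNAi*. Both panels use the same control libraries.

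RNA levels of a list of 13 apical polarity and adherens junction genes were read in the same libraries. In *gro-RNAi* against control 3 of 13 rose and 0 fell, beside 6.26% and 1.23% of all tested genes. These were *sdt*, a scaffold of the Crumbs complex (log2 fold change 1.73, limma adjusted p = 0.0409), *shg*, which encodes E-cadherin (1.37, limma adjusted p = 0.0056), and *alpha-Cat*, its link to actin (0.65, limma adjusted p = 0.0394). In *Notch-RNAi* against control 5 rose and 0 fell, beside 24.4% and 4.29% of all tested genes. These were *Patj* (1.29, limma adjusted p = 0.0123), *p120ctn* (1.09, limma adjusted p = 0.0355), *shg* (1.03, limma adjusted p = 0.00642), *baz* (0.81, limma adjusted p = 0.0274) and *arm* (0.73, limma adjusted p = 0.0289). With centring these counts were 1 higher (*shg*) and 0 lower for *gro-RNAi*, and 1 higher (*Patj*) and 2 lower (*par-6* and *aPKC*) for *Notch-RNAi*. Over all 11493 tested genes centring gave 212 higher and 309 lower for *gro-RNAi*, and 958 and 1294 for *Notch-RNAi*. The 2 calls of *shg* held when any 1 library was left out. Those of *sdt* and *alpha-Cat* were each lost in 5 of 6 such fits and that of *Patj* in 1, without *Notch-RNAi* replicate 1, while those of *baz*, *arm* and *p120ctn* were lost in 3 to 5. The medians of the 13 were 0.40 and 0.52, beside 0.27 and 0.46 over all tested genes.

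The sort was aimed at ISCs, yet RNA of differentiated midgut cells was present. Within its group, *gro-RNAi* replicate 1 had the highest summed level of enterocyte markers and of enteroendocrine markers, but not of every marker. The enterocyte marker *Jon99Ciii* was highest in replicate 2, and the enteroendocrine markers *AstA*, *Mip* and *Dh31* were lowest in replicate 1. The summed level of 9 enterocyte markers, such as the transcription factor gene *nub* and digestive enzyme genes, was 1453, 321 and 424 FPKM in *gro-RNAi*, 923, 807 and 175 FPKM in *Notch-RNAi*, and 388, 495 and 198 FPKM in control libraries. The proteases *Jon65Aiii* and *Jon65Aiv* made up most of the highest sum, at 584 and 412 FPKM in *gro-RNAi* replicate 1. All 9 were above 0 in each group, and 0 of 9 were called in any comparison by limma, where 0 had an unadjusted p under 0.05 in either comparison with control and 1 had one between the depletions. With centring 1 of 9, *Myo31DF*, was called lower in *Notch-RNAi* than in control (-1.10, limma adjusted p = 0.0455), beside 1294 of 11493 tested genes. *gro-RNAi* replicate 1, the highest library for the enterocyte sum, was also the highest *gro-RNAi* library for all 6 members. Between replicates 2 and 3 the enterocyte sum was higher in replicate 3, as were *Ssk*, *Tsp2A* and, narrowly, *mesh* (28.8 against 28.2 FPKM). Of the 9 markers, *nub*, *Myo31DF*, *Jon99Ciii* and *Mal-A1* went the other way and were higher in replicate 2. The lateral genes *cora*, *dlg1* and *scrib* were higher in replicate 2. Within *Notch-RNAi*, *Ssk* and *Tsp2A* fell from replicate 1 to 3 in the order of the enterocyte sum, whereas *mesh* was highest in replicate 2. Control libraries had other orders. Control replicate 2 had the highest enterocyte sum of its group but the lowest *Ssk*, 216 FPKM. Control replicate 3 had the lowest sum but the highest *Tsp2A*, 125 FPKM, while *mesh* was lowest there and highest in control replicate 1. *Notch-RNAi* replicate 3, which had the lowest enterocyte sum of all 9 libraries, had 558 FPKM of *Ssk*, above every control library, although its *nub* level, 1.79 FPKM, was the highest of the *Notch-RNAi* libraries. The part of enterocyte RNA in the level of any member was not tested.

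The summed level of 9 enteroendocrine markers was 1987 to 3367 FPKM in *gro-RNAi*, 3057 to 3351 FPKM in *Notch-RNAi* and 1308 to 2607 FPKM in control libraries, so that *Notch-RNAi* did not overlap with control. For *Notch-RNAi* against control 3 of the 9 rose, *pros*, *AstC* and *CCHa1* (log2 fold changes 2.34, 1.12 and 2.18), beside 24.4% of all tested genes. The 3 that fell were *Tk*, *NPF* and *Dh31* (-4.40, -6.16 and -3.82), beside 4.29% of all tested genes. All 9 were above 0 in each group. The part of the enteroendocrine difference in the *Ssk* result was not tested. The 5 progenitor markers summed to 189 to 339 FPKM in *gro-RNAi*, 172 to 213 FPKM in *Notch-RNAi* and 118 to 250 FPKM in control libraries. *Sox100B* and *Sox21a* carried most of these sums and were not called. For *gro-RNAi* against control 2 of the 5 rose, *Delta* (log2 fold change 2.72, limma adjusted p = 0.00484) and *spdo* (1.63, limma adjusted p = 0.0391), and 0 fell. Over all tested genes 6.26% were called higher and 1.23% lower in that comparison. For *Notch-RNAi* against control the same 2 genes rose, *Delta* (3.00, limma adjusted p = 0.00106) and *spdo* (2.56, limma adjusted p = 0.00243), and *klu* fell (-2.39, limma adjusted p = 0.00233). *Delta* is the gene that the driver and the sort follow, and the part of its change in the members' levels was not tested. Cells from outside the epithelium left little RNA: 7 visceral muscle markers summed to 1.60 to 3.37 FPKM, 4 hemocyte markers to 0.011 to 0.759 FPKM and 2 tracheal markers to 0.243 to 1.22 FPKM over all libraries, with *Mp20* at 0 in *gro-RNAi* and *He* at 0 in *gro-RNAi* and *Notch-RNAi*.

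**Figure D5:**
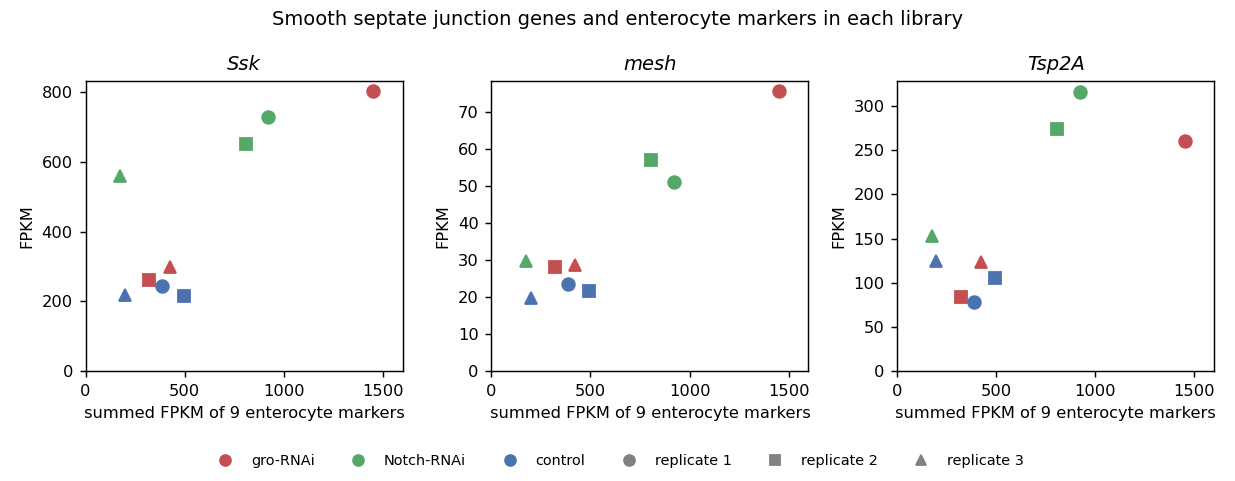
FPKM of *Ssk*, *mesh* and *Tsp2A* (vertical axes) against the summed FPKM of 9 enterocyte markers (horizontal axis) in each of the 9 libraries, coloured by group and with a symbol for each replicate. *gro-RNAi* replicate 1 lies far right at 1453 FPKM of the markers, and *Notch-RNAi* replicate 3 lies far left at 175 FPKM with 558 FPKM of *Ssk*.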

How the data were processed

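RNA was amplified and sequenced on an Illumina GA II, and the authors deposited FPKM for 17481 genes in 9 libraries. The submitters' processing notes name STAR 2.5.2b and the genome build BDGP6. The tool that made the FPKM, its annotation and the use of strand are not given in the sources used here.

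Symbols, coordinates and transcripts came from Ensembl release 115 (genome release 6), which gave 17175 symbols. Columns were matched to groups and replicates by the labels. FPKM carry no read totals, so depth was estimated from the steps between values under 0.3 FPKM in genes with 1 transcript of at least 2500 nt. Between 75.7% and 90.9% of these values lay within 0.15 of a whole read. Reads behind the members were estimated with the shortest annotated transcript of each gene, and longer transcripts would give more reads. The estimates put 590 to 11000 reads behind each *Ssk*, *mesh*, *Tsp2A* and *cora* value, and 280 to 1400 behind those of *dlg1* and *scrib*. These cover counting error only.

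The 11493 genes whose mean reached 0.1 FPKM were compared on log2(FPKM + 0.1), which understates the change of low genes, with limma 3.58.1 in R 4.3.3 (lmFit, eBayes with trend). One fit held all 9 libraries without a replicate block, and p-values were adjusted by Benjamini-Hochberg over all tested genes. Alternatives were a pseudocount of 1 or 0.01 FPKM, a filter at a mean of 1 FPKM, no filter, median centring, quantile normalization, only the 6 libraries compared, a replicate block, and leaving out each library. Summaries used Python 3.11.15 with pandas 2.3.3, and plots matplotlib 3.10.9.

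The rule for named genes took the 6 members and the 3 genes with the nearest profile. It also took the 4 largest called changes each way among other septate junction genes, and the 2 largest among apical genes. Beyond that rule, all called apical genes are named. The members and lists were chosen with earlier results of these data known. *esg* and *btl* were not matched and are not analysed here.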

Additional observations from a re-analysis of the deposited data

How the results depend on the processing

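With median centring the genes called were 212 higher and 309 lower for *gro-RNAi* against control (720 and 141 in the uncentred fit), and 958 higher and 1294 lower for *Notch-RNAi* against control (2806 and 493). Quantile normalization gave 233 and 217, 1067 and 1161, and, for *gro-RNAi* against *Notch-RNAi*, 512 higher (299 in the uncentred fit). Only the 6 libraries compared gave 221 and 53 for *gro-RNAi* against control. The same replicate numbers did not pair the libraries (correlations of deviations -0.0463 to 0.0723 for same numbers, -0.0886 to 0.115 for different ones). With a replicate block 443 genes were called higher for *gro-RNAi* against control and 335 lower for *gro-RNAi* against *Notch-RNAi* (558 without it), and members called higher for *Notch-RNAi* against control were 2, since *mesh* (1.03, limma adjusted p = 0.0493) passed.

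For *Notch-RNAi* against control, members called higher were 0 and called lower 2 with centring, with *Ssk* at 1.00, *cora* at -0.99 and *dlg1* at -0.68. With quantile normalization 2 were called lower, *cora* at -0.88 and *dlg1* at -0.60. With a mean of at least 1 FPKM 2 were called higher, *Tsp2A* passing at 1.23. With only the 6 libraries compared 3 were called higher, *mesh* at 1.03 and *Tsp2A* at 1.23. For *gro-RNAi* against *Notch-RNAi*, centring called 1 member higher, *cora* at 0.80. For *gro-RNAi* against control, *cora* turned to -0.19 with centring and -0.083 with quantile normalization, and *dlg1* to -0.36 and -0.32. The share of lncRNA:CR40469 in the FPKM sum, lower in every *Notch-RNAi* library (2.2 to 3.9%) than in control (14.4 to 16.4%), moved with the groups, and its part in these shifts was not tested.

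Leaving out 1 library at a time gave 267 to 759 genes higher and 54 to 146 lower for *gro-RNAi* against control, 1328 to 2501 higher and 234 to 455 lower for *Notch-RNAi* against control, and 78 to 319 higher and 62 to 887 lower for *gro-RNAi* against *Notch-RNAi*. For *Notch-RNAi* against control, members called higher were 0 to 3, 0 without *Notch-RNAi* replicate 1 or 2 (*Ssk* limma adjusted p = 0.0618 and 0.0533) and 3 without *Notch-RNAi* replicate 3. *Ssk* ranged over 1.41 to 1.60, *mesh* over 0.85 to 1.32 and *Tsp2A* over 1.02 to 1.55. For *gro-RNAi* against *Notch-RNAi*, members called lower were 0 to 1, with *Ssk* at -1.20 to -0.39, *mesh* at -0.63 to 0.077 and *scrib* at -0.41 to 0.035. For *gro-RNAi* against control, *cora* ranged over -0.073 to 0.31 and *dlg1* over -0.14 to 0.16. Of 144 member fold changes under the 8 alternatives, 130 kept their sign and side of the threshold. Of 136 fold changes of other named genes, 111 did, 23 lost their call and 2 gained one, and all kept their sign. With 1 library left out, 92 of 108 member fold changes kept their sign and side of the threshold. Of the rest, 11 turned sign, 2 lost their call and 3 gained one. For other named genes 71 of 102 kept both and 31 lost their call.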
